A study of Homo sapiens with 6 samples.

Results

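This account concerns 7 genes that set the passage of cells from G1 into S phase: the D-type cyclins CCND1, CCND2 and CCND3, their kinases CDK4 and CDK6, the retinoblastoma gene RB1 and the growth regulator MYC. They are defined by gene symbol, and all 7 were found among 57905 gene rows and tested among 14578 genes. Total RNA of U87, an established human glioma cell line, was sequenced in 6 libraries. The 3 control libraries are from cells labelled wild type with treatment given as no, and the 3 siRBM47 libraries are from cells labelled siRBM47. These received 100 pmol of small interfering RNA (siRNA) with a lipid reagent, against RBM47, an RNA-binding protein. The labels do not say whether control cells were transfected or whether replicates were separate cultures, so every p-value here speaks for the scatter of these 6 libraries alone, and that scatter may be technical.

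D-type cyclins are made in response to growth signals and bind CDK4 or CDK6. The active kinases phosphorylate the RB1 protein, which then releases E2F transcription factors and allows genes of DNA replication to be transcribed. MYC, a transcription factor that works as a dimer with MAX, promotes growth and is known to activate CDK4 and to antagonise CDK inhibitors. Gliomas often carry changes in this pathway, and U87 cells are known to have lost the CDKN2A gene, which encodes an inhibitor of CDK4 and CDK6.

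Known MYC sites are of the form CACGTG (the E-box, the same on both strands), and CDK4 is the member whose promoter carried this motif. Of the 7 genes, 4 had a start site in the RefSeq promoter table (GRCh38.p14), namely CCND3, CDK4, CDK6 and RB1. Within the 250 bases before the start site, CDK4 held 3 matches, and the other 3 genes held 0 at any of their listed starts. Of all 35116 listed promoters, 6.34% held at least 1 match and 0.0797% held 3 or more. The 3 matches are shown because MYC and CDK4 are both measured here. Each is printed 5′ to 3′ on the minus strand with the motif in capitals, and its first base lies 216, 196 and 101 bases before the start site, in that order.
CDK4 site 1, chr12:57752509-57752538: atgtcaagcggtCACGTGtgatagcaacag
CDK4 site 2, chr12:57752489-57752518: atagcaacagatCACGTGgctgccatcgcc
CDK4 site 3, chr12:57752394-57752423: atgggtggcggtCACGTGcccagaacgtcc
GENCODE release 29 also places 211 of the 250 bases in exons of CDK4 itself, from transcripts that start further upstream. A match describes the letters only.

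Libraries held 15580000 to 18130000 counts each, rounded. Control replicate 3 stood apart, with a Pearson correlation of log2 expression across genes of 0.9406 and 0.9502 with the other controls, against 0.9878 between those. For all 7 genes this library was the highest or the lowest of the 3 controls, as it was for 88.6% of all tested genes. The same held for siRBM47 replicate 1 in its group, for 7 of 7 genes and 81.1% of all tested genes. RBM47 itself was at 1.62, 1.73 and 5.75 CPM in control and 3.54, 2.74 and 2.23 CPM in siRBM47, where CPM is the count scaled to a common library size. Its groups overlapped and no fall was detected (log2 fold change -0.11, 95% interval -1.23 to 1.02, adjusted p = 0.942 by edgeR). Without control replicate 3 the log2 fold change of RBM47 was 0.76 (95% interval -0.02 to 1.54, adjusted p = 0.152 by edgeR). Directions below are therefore between libraries labelled siRBM47 and control.

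In the libraries labelled siRBM47, CDK6 was higher and CCND2 lower than in every control library, and the other 5 genes had overlapping groups. None of the 7 genes passed an adjusted p of 0.05 with all 6 libraries, by edgeR, DESeq2 or limma-voom, and 3 (CCND2, CCND3, CDK6) had an unadjusted p under 0.05. Over all tested genes 0.22% passed by edgeR (0.0823% higher and 0.137% lower in siRBM47) and 16.1% had an unadjusted p under 0.05. DESeq2 called 4.51% of the 14289 genes to which it gave an adjusted p, and limma-voom called 0.233%. The groups did not overlap for 2 of the 7 genes and for 22.6% of all tested genes. When control replicate 3 was left out, CDK6 was called higher and CCND2 and CCND3 lower, 3 of 7 genes, where 21.4% of all tested genes were called. In that fit the same 3 had an unadjusted p under 0.05, as did 35.9% of all tested genes. In bulk RNA, a change in the share of cycling cells and a change in RNA per cell cannot be told apart.

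**Figure D1:**
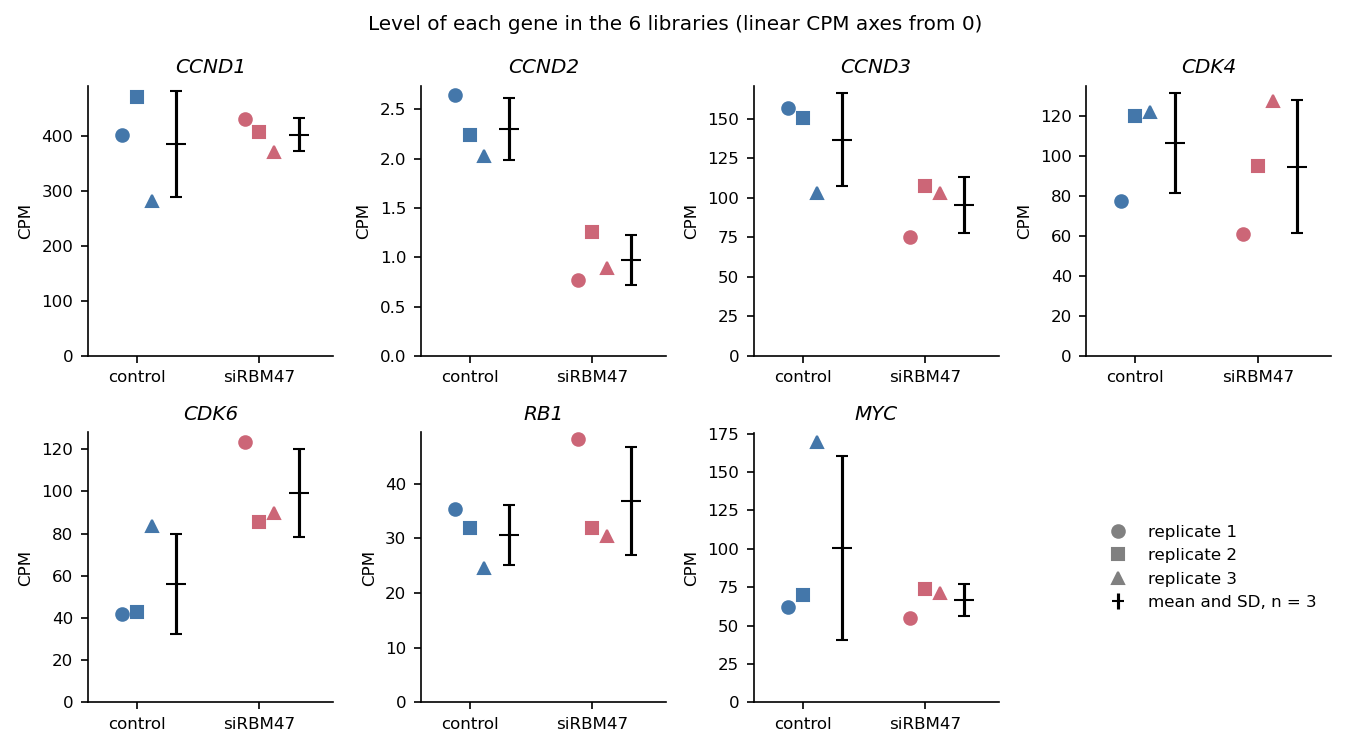
Level of each of the 7 genes in CPM (linear axes from 0) in control (blue) and siRBM47 (red) libraries, with symbols for replicates and the mean with SD (n = 3) in black. CCND2 and CDK6 are the genes whose groups do not overlap, and control replicate 3 (triangle) carries the high MYC value of 169 CPM.

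CCND1 was the most abundant of the 7 genes and differed little between the groups. The gene (ENSG00000110092, GRCh38 chromosome 11, 69641087 to 69654474, plus strand) encodes cyclin D1, the D-type cyclin most often amplified in tumours. It was at 402, 472 and 282 CPM in control replicates 1 to 3 and at 431, 407 and 371 CPM in siRBM47 replicates 1 to 3. The siRBM47 values all lie inside the range of the controls, whose lowest value is control replicate 3. The log2 fold change was 0.07 (SE 0.22, adjusted p = 0.914, edgeR), and its 95% interval, -0.42 to 0.55, contains ratios from 0.748 to 1.46. Without control replicate 3 the sign turned (-0.12, SE 0.14, adjusted p = 0.594, edgeR). Exons of LTO1 overlap 10.3% of the exon length of CCND1 on the opposite strand, and the kit used for the libraries, per the labels, keeps no strand information. LTO1 ran from 12.5 to 33.2 CPM over the 6 libraries, well under CCND1.

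CCND2 was close to the limit of detection and lower in all 3 siRBM47 libraries. It (ENSG00000118971, chromosome 12, 4273772 to 4305350, plus strand) encodes cyclin D2, which glioma stem cells are known to use. From 39, 39 and 38 counts, its level was 2.64, 2.24 and 2.02 CPM in control, and from 14, 22 and 16 counts it was 0.773, 1.26 and 0.894 CPM in siRBM47. Every siRBM47 value lies under every control value. However, the exact Poisson 95% interval of siRBM47 replicate 2 (0.788 to 1.90) overlaps that of every control library. The interval of siRBM47 replicate 3 also overlaps that of control replicate 3 (1.43 to 2.78). Such intervals cover counting error only. All 3 siRBM47 libraries lay under every control library for 11% of tested genes. The log2 fold change was -1.23 (95% interval -2.09 to -0.38, SE 0.38 and adjusted p = 0.171, edgeR), a 2.35-fold lower level. Leaving out control replicate 3 gave -1.32 (adjusted p = 0.0338, edgeR). Part of the exon length (13.8%) is shared with AC008012.1 on the same strand, so the counts of CCND2 are uncertain.

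CCND3 was lower on average in siRBM47, with groups that touch through control replicate 3. The gene (ENSG00000112576, chromosome 6, 41934933 to 42050357, minus strand) encodes cyclin D3, the third D-type partner of CDK4 and CDK6. Its level was 157, 150 and 103 CPM in control and 75.4, 108 and 103 CPM in siRBM47. Control replicates 1 and 2 are above all siRBM47 libraries, while control replicate 3 lies among them. The log2 fold change was -0.52 (95% interval -1.03 to -0.01, SE 0.23 and adjusted p = 0.300, edgeR). In the fit without control replicate 3 it was -0.69 (SE 0.17, adjusted p = 0.0113, edgeR).

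Per unit of gene length, CCND1 made up most of the D-type cyclin signal in every library, and more of it in siRBM47. A gene length need not be that of the transcripts present, so these are not shares of transcript molecules. On the authors' FPKM scale (read counts scaled to gene length and library size), CCND1 was 73.5%, 77.3% and 74.7% of the sum of the 3 genes in control. In siRBM47 it was 86.2%, 80.4% and 79.6%, above every control library, with siRBM47 replicate 1 highest. CCND3 took 24.5% ± 1.89 in control and 17.8% ± 3.53 in siRBM47 (SD, n = 3), and CCND2 took 0.312% ± 0.0580 and 0.134% ± 0.0319. The summed level was 105 ± 25.1 FPKM in control and 101 ± 4.04 FPKM in siRBM47, so the total differed by less than the spread between controls. Unlike the CCND3 levels, the shares do not overlap with control replicate 3 included. CCND1 and CCND3 are both at their lowest control level in that library. These shares are computed from the levels given above and were not tested. For single genes, the groups did not overlap for 22.6% of all tested genes.

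**Figure D2:**
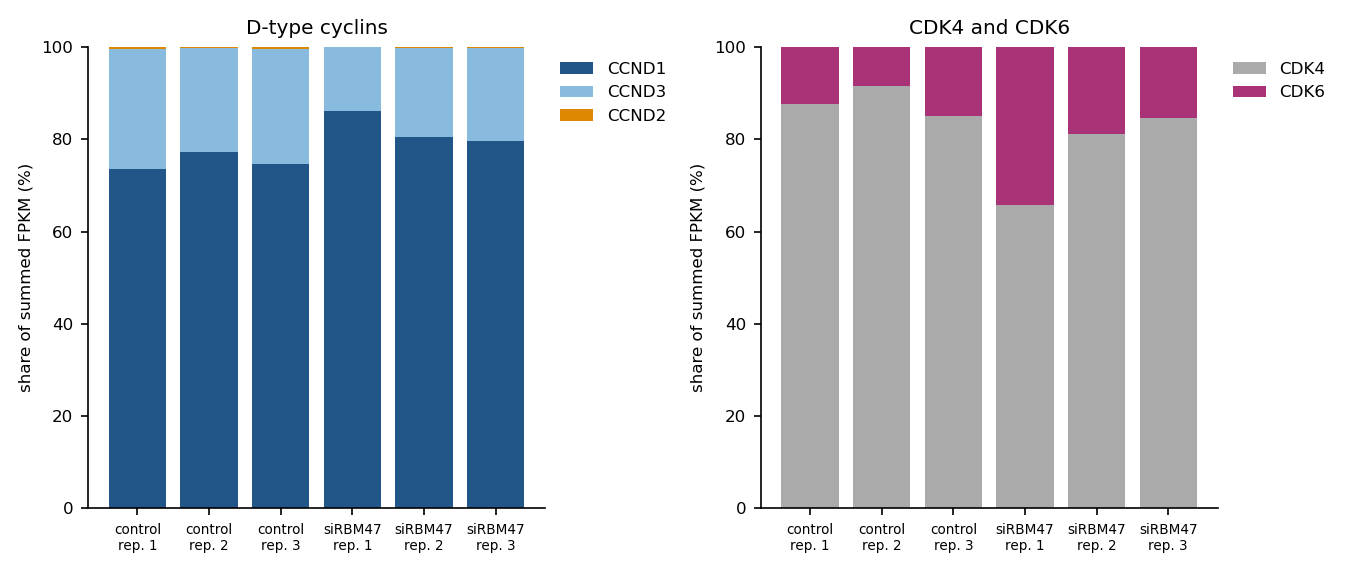
Share of the summed FPKM (percent) taken by each D-type cyclin (left) and by CDK4 and CDK6 (right) in each of the 6 libraries. CCND1 takes 73.5% to 77.3% in control and 79.6% to 86.2% in siRBM47, CCND2 is barely visible, and the share of CDK6 is highest in siRBM47 replicate 1 (34.3%).

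CDK4 varied as much within each group as between them. The gene (ENSG00000135446, chromosome 12, 57747727 to 57756013, minus strand) encodes one of the pair of kinases that D-type cyclins activate. It was at 77.5, 120 and 122 CPM in control replicates 1 to 3 and at 61.2, 95.3 and 128 CPM in siRBM47 replicates 1 to 3. In both groups replicate 1 was the lowest, and the groups overlap over nearly their whole range. The log2 fold change was -0.17 (95% interval -0.81 to 0.47, SE 0.29 and adjusted p = 0.815, edgeR). Without siRBM47 replicate 1 the sign turned (0.07, adjusted p = 0.946, edgeR). TSPAN31 overlaps 43.2% of the exon length of CDK4 on the opposite strand, so reads of the genes cannot be told apart there. TSPAN31 was counted at 20.3 to 46.2 CPM in control and 23.1 to 30.3 CPM in siRBM47.

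CDK6 was the member whose siRBM47 libraries all lay above the controls, a difference that did not pass the test. The gene (ENSG00000105810, chromosome 7, 92604921 to 92836594, minus strand) encodes the other D-cyclin kinase. Its level was 42.0, 43.0 and 83.7 CPM in control and 123, 85.3 and 89.7 CPM in siRBM47. All siRBM47 libraries lie above all controls, but control replicate 3 is just under the lowest of them. All 3 siRBM47 libraries were above every control library for 11.6% of tested genes. The log2 fold change was 0.82 (95% interval 0.16 to 1.48, SE 0.29 and adjusted p = 0.222, edgeR), a 1.77-fold higher level. It was 1.23 (SE 0.19, adjusted p = 0.000716, edgeR) without control replicate 3. In that fit 10.1% of all tested genes were called higher. With no filter on low counts, 27110 genes were tested, 2.97% were called, and CDK6 was also called higher (0.84, adjusted p = 0.0179, edgeR).

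Per unit of gene length, CDK4 remained the more abundant of the 2 kinase genes in every library, by a margin that was smaller in siRBM47. The ratio of CDK4 to CDK6 in FPKM was 7.15, 10.8 and 5.64 in control and 1.92, 4.32 and 5.51 in siRBM47. Each siRBM47 ratio is under each control ratio, but siRBM47 replicate 3 (5.51) is just under control replicate 3 (5.64). The ratio is computed from the levels given above and is no separate result. Groups of single genes did not overlap for 22.6% of all tested genes. CDK6 therefore took 8.48% to 15.1% of the summed FPKM in control and 15.4% to 34.3% in siRBM47. The sum of both kinases was 37.8 ± 8.92 FPKM in control and 37.8 ± 9.16 FPKM in siRBM47 (SD, n = 3). As with the cyclins, these ratios were not tested.

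RB1 showed no difference beyond the spread between libraries. It (ENSG00000139687, chromosome 13, 48303726 to 48599436, plus strand) encodes the protein that holds E2F factors inactive. Control libraries had 35.4, 31.9 and 24.6 CPM and siRBM47 libraries 48.2, 31.8 and 30.3 CPM. The high value is siRBM47 replicate 1, and the other siRBM47 libraries are within the range of the controls. The log2 fold change was 0.26 (95% interval -0.27 to 0.80, SE 0.24 and adjusted p = 0.627, edgeR). Leaving out siRBM47 replicate 1 brought it to 0.02 (adjusted p = 0.981, edgeR).

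MYC was set apart by 1 library. The gene (ENSG00000136997, chromosome 8, 127735434 to 127741434, plus strand) was at 62.4, 70.0 and 169 CPM in control and at 54.9, 73.9 and 71.2 CPM in siRBM47. Control replicate 3 is more than any other library, and the other 5 libraries lie between 54.9 and 73.9 CPM. In log2 CPM this library exceeded the mean of the other controls by 1.36 (2.56-fold), and 9.12% of tested genes had a difference at least as large. For CDK6 the same difference was 0.98, for CDK4 0.34, for CCND2 -0.25, for RB1 -0.45, for CCND3 -0.57 and for CCND1 -0.63. Over all libraries the log2 fold change of MYC was -0.59 (95% interval -1.39 to 0.20, SE 0.36 and adjusted p = 0.450, edgeR). It was 0.01 (95% interval -0.36 to 0.38, SE 0.17 and adjusted p = 0.972, edgeR) without control replicate 3, so the lower mean of siRBM47 rests on that library.

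**Figure D3:**
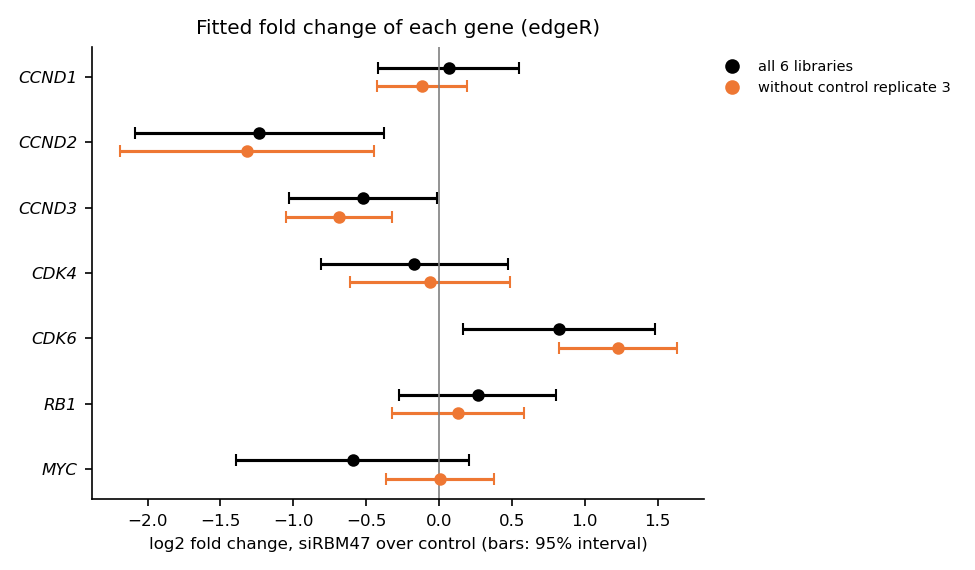
Log2 fold change of siRBM47 over control with its 95% interval (edgeR) for each gene, with all 6 libraries (black) and without control replicate 3 (orange). Removing this library moves CDK6 from 0.82 to 1.23, CCND3 from -0.52 to -0.69 and MYC from -0.59 to 0.01.

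Ordered by mean FPKM, the control levels ran from CCND1 (57.3 to 96.8) through CDK4 (24.3 to 37.9), MYC (20.7 to 55.6), CCND3 (19.2 to 29.4), RB1 (3.92 to 5.69) and CDK6 (3.395 to 6.71) to CCND2 (0.278 to 0.366). CCND1 stood above, and CCND2 below, all others without overlap. Neighbours among CDK4, MYC and CCND3 overlapped in their ranges, as did RB1 and CDK6. In siRBM47 the order was the same except that CDK6 (6.85 to 10.1 FPKM) came before RB1 (4.91 to 7.80 FPKM), again with overlapping ranges.

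The CDK inhibitors, which restrain the cyclin-bound kinases, gave 0 of 4 tested genes past the threshold by edgeR (0.22% of all tested genes). By edgeR 3 were lower at an unadjusted p under 0.05 (16.1% of all tested genes, either direction). DESeq2 called 2 of the 4 (4.51% of all genes given an adjusted p) and limma-voom 0 (0.233%). The median log2 fold change was -1.02, against -0.01 over all tested genes, and -0.67 without control replicate 3. That library was the highest of all 6 for 3 of the 4 genes and for 25.4% of all tested genes. CDKN1A (p21), a p53-induced inhibitor, was at 410, 496 and 926 CPM in control and 244, 333 and 354 CPM in siRBM47 (log2 fold change -0.98, SE 0.31, adjusted p = 0.174, edgeR). CDKN2D (p19), an inhibitor of CDK4 and CDK6, was at 90.3, 78.1 and 32.6 CPM in control and at 31.5, 31.1 and 33.7 CPM in siRBM47 (-1.06, SE 0.33, adjusted p = 0.171, edgeR). Control replicate 3 thus lies with the siRBM47 libraries for CDKN2D and above all others for CDKN1A. CDKN1C and CDKN1B had log2 differences of -1.25 and -0.30 (adjusted p = 0.271 and 0.570, edgeR). Without control replicate 3, CDKN1A fell by 0.55 (adjusted p = 0.0358) and CDKN2D by 1.39 (adjusted p = 7.35e-05), and CDKN1B was at -0.027 (edgeR). The CDK4 and CDK6 inhibitors CDKN2B and CDKN2C had 0 counts in all 6 libraries, which allows up to 3 counts in each, and CDKN2A had 9 counts in control replicate 1 and 0 in the others.

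RB relatives and E2F factors gave 0 of 11 tested genes past the threshold by any of the 3 tools. Of all tested genes 0.22% passed by edgeR and 0.233% by limma-voom, and DESeq2 called 4.51% of those given an adjusted p. By edgeR 1 of the 11 was lower at an unadjusted p under 0.05 (16.1% of all tested genes, either direction), and the median was -0.13. E2F1, an activator that RB1 holds back, was at 171, 186 and 81.0 CPM in control and 75.2, 93.6 and 96.0 CPM in siRBM47 (log2 fold change -0.73, SE 0.29, adjusted p = 0.270, edgeR). E2F2 had a similar difference, -0.73 (adjusted p = 0.324, edgeR), and control replicate 3 lay at or under the siRBM47 level for E2F2 (12.9 CPM against 13.3 to 16.97). TFDP1, the DNA-binding partner of E2F proteins, differed by 0.36 and E2F5 by -0.54 (adjusted p = 0.387 and 0.393, edgeR).

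The E and A cyclins with CDK2, which act after the D-type cyclins, gave 0 of 9 genes past the threshold by any of the 3 tools. Of all tested genes 0.22% passed by edgeR. By edgeR 2 of the 9 were lower at an unadjusted p under 0.05 (16.1% of all tested genes, either direction), and the median was -0.17. CDK2 was at 72.7, 85.3 and 75.6 CPM in control and 51.3, 55.6 and 64.1 CPM in siRBM47, without overlap (log2 fold change -0.45, SE 0.18, adjusted p = 0.265, edgeR). The kinase subunit CKS1B was at 104 to 134 CPM in control and 78.7 to 96.5 CPM in siRBM47 (-0.44, adjusted p = 0.282, edgeR). CCNE2, a cyclin E, differed by 0.59 and MNAT1, part of the CDK-activating kinase, by -0.17 (adjusted p = 0.429 and 0.736, edgeR).

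Genes of the turnover of D and E cyclins and MYC, which promote or oppose their breakdown, gave 0 of 9 past the threshold by the 3 tools. Of all tested genes 0.22% passed by edgeR. By edgeR 1 of the 9 was higher at an unadjusted p under 0.05 (16.1% of all tested genes, either direction). The median was 0.19 (0.13 without control replicate 3). CUL1, the scaffold of SCF ubiquitin ligases, was at 125, 110 and 107 CPM in control and 172, 138 and 152 CPM in siRBM47 (log2 fold change 0.44, SE 0.18, adjusted p = 0.270, edgeR). FBXO4, which recognises cyclin D1 for such a ligase, and USP28, which removes ubiquitin from MYC, differed by 0.38 and 0.51 and AMBRA1, a receptor for the degradation of D-type cyclins, by -0.32 (adjusted p = 0.405, 0.450 and 0.519, edgeR).

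Among the partners and rivals of MYC, 0 of 11 tested genes passed by the 3 tools, and 0 had an unadjusted p under 0.05 by edgeR. Of all tested genes 0.22% passed by edgeR and 16.1% had an unadjusted p under 0.05. The median was -0.15 (-0.03 without control replicate 3). MXD3, which competes with MYC for MAX, was at 129, 116 and 28.7 CPM in control and 38.1, 53.8 and 44.6 CPM in siRBM47 (log2 fold change -1.004, SE 0.45, adjusted p = 0.314, edgeR). MAX was at 66.6, 63.2 and 41.7 CPM in control and 71.2, 82.2 and 75.8 CPM in siRBM47 (0.42, adjusted p = 0.379, edgeR). Control replicate 3 was the lowest of the 6 libraries for 4 of the 11 genes, MXD3 and MAX among them, and the highest for 3 others. Over all tested genes it was the lowest for 25.2% and the highest for 25.4%. ZBTB17 differed by -0.42 and MXD4 by 0.38 (adjusted p = 0.407 and 0.456, edgeR). MYCN, a relative of MYC, had 0 counts in all libraries.

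Targets of E2F in DNA replication and of MYC in ribosome building and metabolism gave 0 of 16 and 0 of 15 tested genes past the threshold by edgeR. Each list had 1 lower at an unadjusted p under 0.05. Of all tested genes 0.22% passed by edgeR and 16.1% had an unadjusted p under 0.05 in either direction. DESeq2 called 0 and 1 of them, limma-voom called 0 and 0, and the medians were -0.11 and -0.06. Without control replicate 3 the medians were -0.32 and -0.37. ODC1, the first enzyme of polyamine synthesis, was at 95.9, 104 and 86.8 CPM in control and 51.8, 59.7 and 67.4 CPM in siRBM47 (log2 fold change -0.68, SE 0.18, adjusted p = 0.132, edgeR). LDHA (0.37), NPM1 (0.28) and HSPD1 (-0.27) had adjusted p of 0.377, 0.494 and 0.493 (edgeR). ORC1, a subunit of the origin recognition complex, was at 18.9 to 21.3 CPM in control and 11.2 to 17.1 CPM in siRBM47 (-0.56, adjusted p = 0.269, edgeR). The licensing factor CDT1 differed by -0.72, the helicase subunit MCM7 by -0.48 and the thymidylate enzyme TYMS by -0.40 (adjusted p = 0.399, 0.435 and 0.417, edgeR).

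**Figure D4:**
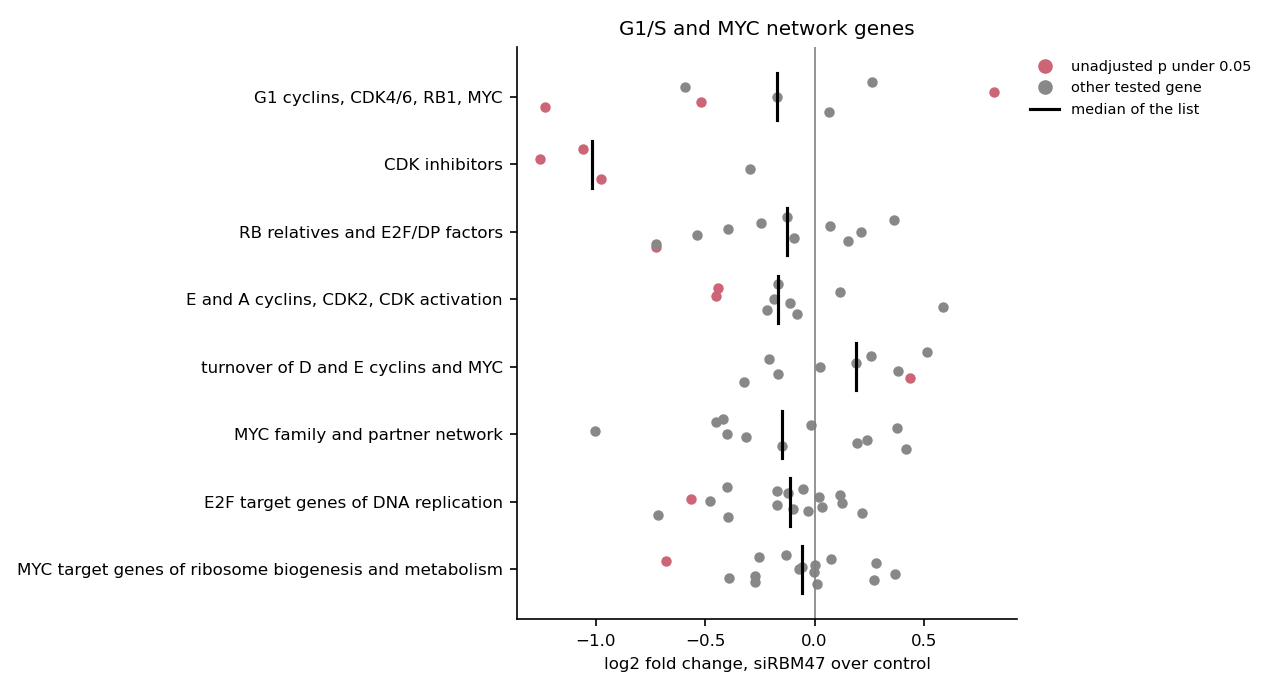
Log2 fold change of siRBM47 over control for each tested gene of the 7 core genes and of 7 lists of related genes, with genes at an unadjusted p under 0.05 in red and a black bar at each list's median. The CDK inhibitors have the lowest median (-1.02), and the other lists have medians between -0.17 and 0.19.

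Over the 7 lists together, 75 genes were tested, and 0 passed by edgeR or limma-voom and 3 by DESeq2. Over all tested genes, 0.22% passed by edgeR, 0.233% by limma-voom and 4.51% of those given an adjusted p by DESeq2. By edgeR, 9 of the 75 had an unadjusted p under 0.05, as did 16.1% of all tested genes. Without control replicate 3, 0 were called higher and 19 lower, beside 10.1% and 11.3% of all tested genes in those directions. Among the 19 were E2F1 (-1.02), E2F2 (-1.05), MXD3 (-1.43), CDT1 (-1.09), MCM7 (-0.75) and ODC1 (-0.75). In control replicate 3 itself, 13 of 16 E2F targets and 9 of 15 MYC targets were at the lowest level of the 6 libraries, compared with 25.2% of all tested genes. The median difference of this library from the other controls was -0.74 for the E2F targets and -0.43 for the MYC targets, against 0.01 for all tested genes (log2). The part that the make-up of this library plays in the calls was not tested.

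Genes with the profile most like each member over the 6 libraries were found by the root mean square difference of log2 CPM centred on its mean. For MYC they were TSC22D3 (0.078), TMEM8B (0.091) and TLE1 (0.099), where the median gene of 9644 differed by 0.592. TSC22D3, a transcript known to be induced by glucocorticoids, was at 45.4, 49.7 and 118 CPM in control and 45.2, 56.6 and 53.1 CPM in siRBM47, the same single high library as MYC. SLC35F5 (0.053) was nearest to CDK6 and CILK1 (0.087) was also close to it, both lowest in control replicates 1 and 2. CDK4 was followed by FOXM1 (0.106), DPP3 (0.124) and CANT1 (0.124), each low in replicate 1 of both groups. Around RB1 were EIF5B (0.028), MOCS2 (0.058) and CCDC34 (0.058), and around CCND1 FAM118A (0.059), BRCA1 (0.059) and MARCHF3 (0.066). TUFM (0.034), SH3BP1 (0.035) and ROBO3 (0.040) were closest to CCND3, and LENG8 (0.067), NAA80 (0.071) and RAC3 (0.110) to CCND2. With 6 libraries, 1 library that stands apart shapes such likeness, and it is a description only.

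**Figure D5:**
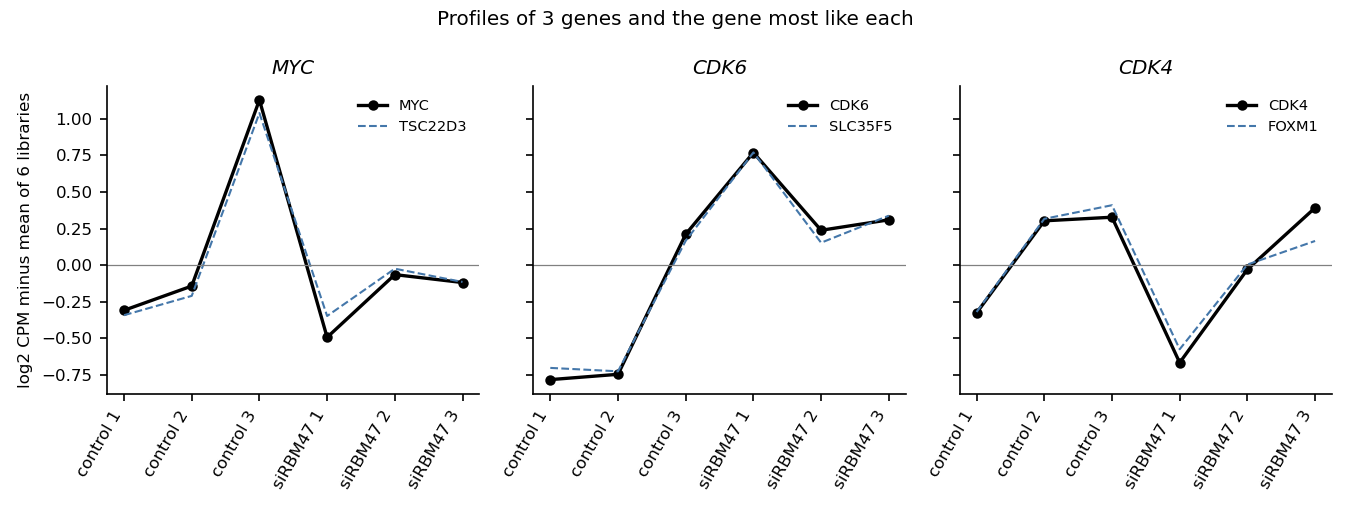
Log2 CPM minus the mean of the 6 libraries for MYC, CDK6 and CDK4 (black) and the gene with the most similar profile to each (dashed; TSC22D3, SLC35F5 and FOXM1), with lines joining libraries only to guide the eye. MYC peaks in control replicate 3, CDK6 is lowest in control replicates 1 and 2, and CDK4 is low in replicate 1 of both groups.

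The labelled cell type was checked by markers. Of 10 glial and glioma markers 8 were tested, VIM and CD44 were abundant (2831 to 4939 and 596 to 902 CPM), while AQP4 had 0 counts and GFAP was at 0.339 to 1.49 CPM. Immune markers summed to 12.3 to 25.7 CPM in control and 23.7 to 31.6 CPM in siRBM47, nearly all from CSF1R, with MS4A1, ITGAM and AIF1 at 0 counts. Endothelial markers summed to 12.7 to 16.4 and 8.77 to 11.05 CPM, mostly KDR, and neuronal markers to 32.3 to 38.1 and 33.3 to 49.2 CPM.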

How the data were processed

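The authors deposited, for each of the 6 libraries, FPKM values and whole-number counts for every gene, per the file headers. The submitters' processing notes name HISAT2 2.0.5, featureCounts 1.5.0-p3 and the hg38 build. For the annotation release, strand setting and read filters, no statement is given in the sources used here. Groups and replicate numbers follow the sample titles. The counts were tested with edgeR 4.0.16 (R 4.3.3; filterByExpr with minimum count 10, TMM factors, quasi-likelihood test, Benjamini-Hochberg adjustment over 14578 genes, threshold 0.05). Standard errors come from dividing the size of each log2 fold change by the root of its F statistic. CPM uses TMM-scaled library sizes, and log2 CPM a prior count of 2. The deposited FPKM served to compare levels between genes and in no test, and are not TMM-scaled. Symbols came from a table of identifiers (5909 without one). BOP1 and PECAM1 were not matched by symbol. Positions are from GENCODE release 29 on GRCh38.

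Alternatives were RLE and upper quartile factors, DESeq2 1.42.0, limma-voom (limma 3.58.1), no filter, minimum count 50, a block on replicate number, and leaving out each library. DESeq2 and limma-voom without control replicate 3 were chosen later, with the data seen. Simulated data served to test the edgeR step. The members and lists were chosen with earlier results of these data known. Named are the members, RBM47, up to 4 genes per pathway list with the smallest p, and per member the 3 genes of like profile with mean log2 CPM of at least 3, of which 1 is not reported here. Others (TSPAN31, LTO1, the markers, genes at 0 counts) were named after their values were seen. Replicates of a group differed beyond sampling noise (chi-square per degree of freedom 10.74 to 144.8, for genes that reach 20 counts summed over both libraries), so none was counted as a repeat of another library. This comparison cannot tell separate cultures from separate libraries of the same culture.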

Additional observations from a re-analysis of the deposited data

How the results depend on the processing

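With RLE or upper quartile factors, limma-voom or a minimum count of 50, 0 of the 7 genes were called, as with the main edgeR test, and CCND2 was not tested under the last. DESeq2 called 644 genes in all, 0 of the 7 and 3 of the pathway genes (CDKN2D, CDKN1A and ODC1). With no filter edgeR called 804 genes, 1 of the 7 (CDK6) and 3 of the pathway genes. The cause was not tested. Leaving out 1 library gave 0 to 3117 genes in all, 0 to 3 of the 7 and 0 to 19 pathway genes, each highest without control replicate 3. Without control replicate 1 or 2 the count was 19 or 12, and without any 1 of the siRBM47 libraries it was 0 by edgeR, with 1445 to 1816 genes at an unadjusted p under 0.05. DESeq2 and limma-voom without control replicate 3, added later, also called the same 3 genes (CCND2, CCND3, CDK6), with CCND1 at -0.12 by both and MYC at 0.010 by DESeq2 and -0.0022 by limma-voom. Over the libraries left out, log2 fold changes that changed sign ran from -0.12 to 0.25 for CCND1, -0.45 to 0.065 for CDK4, -0.83 to 0.0097 for MYC and -0.39 to 0.76 for RBM47. Those of CCND2 (-1.44 to -1.09), CCND3 (-0.69 to -0.38), CDK6 (0.64 to 1.23) and RB1 (0.02 to 0.39) kept their sign. RBM47 was at 0.10 by limma-voom and 0.12 with the replicate block.

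With the replicate number as a block edgeR called 39 genes and 0 of the 7. Deviations of same-numbered libraries from their group means correlated at -0.0364, 0.127 and 0.116. Control replicate 1 correlated best with siRBM47 replicate 2 (0.2). Control replicates 2 and 3 each correlated best with the siRBM47 library of their own number. The titles do not say that the numbers pair, so the libraries were treated as sharing only a number. CCND2, with 14 to 39 counts per library, is the member whose precision depth limits.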

Other observations

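Beyond the genes named by rule, CCNE1 (cyclin E1) and CDC25A (the phosphatase that activates CDK2) were picked after their values were seen, because control replicate 3 is far below every other library for both. CCNE1 was at 33.6, 29.9 and 8.78 CPM in control and 17.95, 21.7 and 22.5 CPM in siRBM47. CDC25A was at 38.2, 42.4 and 10.1 CPM in control and 24.7, 27.0 and 28.0 CPM in siRBM47. With all 6 libraries their adjusted p was 0.834 and 0.867 (edgeR). Without control replicate 3, CCNE1 was at -0.62 (adjusted p = 0.0283) and CDC25A at -0.60 (adjusted p = 0.0224) in log2 fold change (edgeR). In that fit 11.3% of all tested genes were called lower. Both genes were picked for their low value in the library that this fit leaves out.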
